A study of Mus musculus with 4 samples.

Results

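The 46 genes described here are the ligands and receptors of the tumour necrosis factor (TNF) superfamily and the TRAF adaptors that bind the receptors, in mouse colon 7 days after TNBS. They were taken by gene symbol among the genes named on the array: those named Tnfsf, those named Tnfrsf with 1 exclusion made in advance, Traf1 to Traf7, and Tnf, Lta, Ltb, Ltbr, Fas, Fasl, Cd40, Cd40lg, Cd27 and Ngfr. That gives 15 ligands, 24 receptors and 7 adaptors out of 16637 genes named on the array. The ligand gene Tnfsf13 is not analysed here.

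The samples were colons of female mice, of a strain labelled BALB/c for mock and BALC/c for the other groups; the labels used here state no age. In all, 24 mice were split evenly into 4 groups of 6, and each group is represented by 1 array. The ginger group received ginger extract mixed with 250 mg/kg TNBS (trinitrobenzene sulfonic acid, a hapten that provokes colitis in rodents), and the zingerone group received zingerone, a phenolic ketone of ginger, mixed with the same dose. The amounts of ginger extract and zingerone varied within their groups, and the labels do not say which amounts, or how many mice, lie behind an array. The TNBS group received TNBS alone and the mock group received no TNBS. All 4 groups, mock included, were given 0.1 ml of 50% ethanol as vehicle, so no array shows a colon without ethanol.

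TNF superfamily ligands are mostly trimeric proteins on the cell surface, some of which are cut free. Their receptors either carry a death domain, which can recruit caspases, or bind TRAF proteins, which pass the signal to NF-κB and MAP kinases; several do both through adaptors. In the gut the family is known for TNF itself, the target of antibodies used against Crohn's disease and ulcerative colitis, for lymphotoxin, which shapes gut lymphoid tissue, and for the pair TWEAK and Fn14 (genes Tnfsf12 and Tnfrsf12a), which acts in injured epithelium.

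The values are deposited Cy3 intensities of a 1-colour array on a linear scale, with a median of 238 over all probes of the ginger array and 238.2 over those of the TNBS and mock arrays. Probes of 1 gene were averaged on the log2 scale. A gene counts as measured where at least 1 array put it at or above the median of probes with a gene name, 269 to 272 depending on the array, and higher or lower if 2 arrays differed at least 2-fold. With 1 array per group no difference could be given an error or tested; the precision is limited by the number of arrays. Of 18 colon epithelial markers 17 were measured. The brightest were the mucus peptide Tff3, at 59389.7 on ginger, 64634 on zingerone, 33939.5 on TNBS and 64237 on mock, and the keratin Krt8, at 47587 on ginger, 54949 on zingerone, 48876 on TNBS and 36534 on mock.

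Of the 46 genes, 27 were measured: 7 of 15 ligands, 13 of 24 receptors and all 7 adaptors. Of these, 15 reached that named-probe median on all 4 arrays, 3 on 2 or 3 arrays and 9 on 1 array, which was the TNBS array for Cd40, Fas, Tnfrsf11b, Tnfrsf1b and Tnfsf14. A gene that passes through its highest array is selected for a difference, so counts over the 27 are descriptions. The other 19 genes lay, as means over their probes, between 110 and 261 on all arrays. These were the ligands Fasl, Ltb, Tnfsf4, Tnfsf8, Tnfsf10, Tnfsf11, Tnfsf15 and Tnfsf18 and the receptors Cd27, Tnfrsf4, Tnfrsf10b, Tnfrsf11a, Tnfrsf13b, Tnfrsf19, Tnfrsf21, Tnfrsf22, Tnfrsf23, Tnfrsf25 and Tnfrsf26. Single probes of Tnfsf10, Tnfsf18, Tnfrsf4, Tnfrsf10b, Tnfrsf13b and Tnfrsf22 did reach the named-probe median on at least 1 array.

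Between its highest and lowest array, a measured member differed by less than 1.5-fold for 19 of 27 genes (70.4%, against 63.5% of all measured genes), by 1.5-fold to 2-fold for 6 (22.2%, against 23.4%), and by at least 2-fold for 2 (7.41%, against 13.2%), the receptor Tnfrsf12a and the adaptor Traf1. The median size of the TNBS minus mock difference was 0.30 (log2) for members and for all genes alike, and that of ginger minus TNBS was 0.31 for members and 0.21 for all genes. Tnfrsf12a and Traf1 were higher on the TNBS array than on the mock array, 2 of 27 members against 5.08% of all measured genes. No member was 2-fold lower (4.52% of all genes were). In these bulk samples fewer cells of a type and less RNA per cell cannot be told apart. The members' share, 7.41%, is close to the background and is no result about the family. With dim genes kept, 26 of 46 members lay above mock on the TNBS array (56.5%, against 47.3% of all named genes), with a median log2 difference of 0.15 for members and -0.016 over all.

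Against the TNBS array, Traf1 was 2-fold lower on the ginger array, 1 of 27 members against 2.48% of all measured genes, and none was 2-fold higher (1.35%). Traf1 was also the member 2-fold lower on the zingerone array (1 of 27, against 2.96%), with none 2-fold higher (4.57%). With dim genes kept, 32 of 46 members lay below TNBS on ginger and 33 on zingerone (69.6% and 71.7%), against 49.1% and 54.2% of all named genes. Against mock, Tnfrsf12a was 2-fold higher on both arrays, 1 of 27 each time, where 1.62% of all genes were higher on ginger and 1.53% on zingerone. No member was 2-fold lower than mock on ginger or zingerone (1.08% and 1.05% of genes were). Between ginger and zingerone no member was 2-fold apart in either direction (0.358% of all genes were higher and 0.746% lower on ginger). These comparisons share arrays and are not independent of each other. The TNBS array was the highest of the 4 for 16 of the 27 measured members (59.3%, against 30.6% of all measured genes). Of these 16, Cd40, Fas, Tnfrsf11b, Tnfrsf1b and Tnfsf14 passed the filter through the TNBS array alone. The filter thus selected them for a high TNBS value, and the count is a description. The zingerone array was the lowest for 13 (48.1%, against 26.3%).

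**Figure D1:**
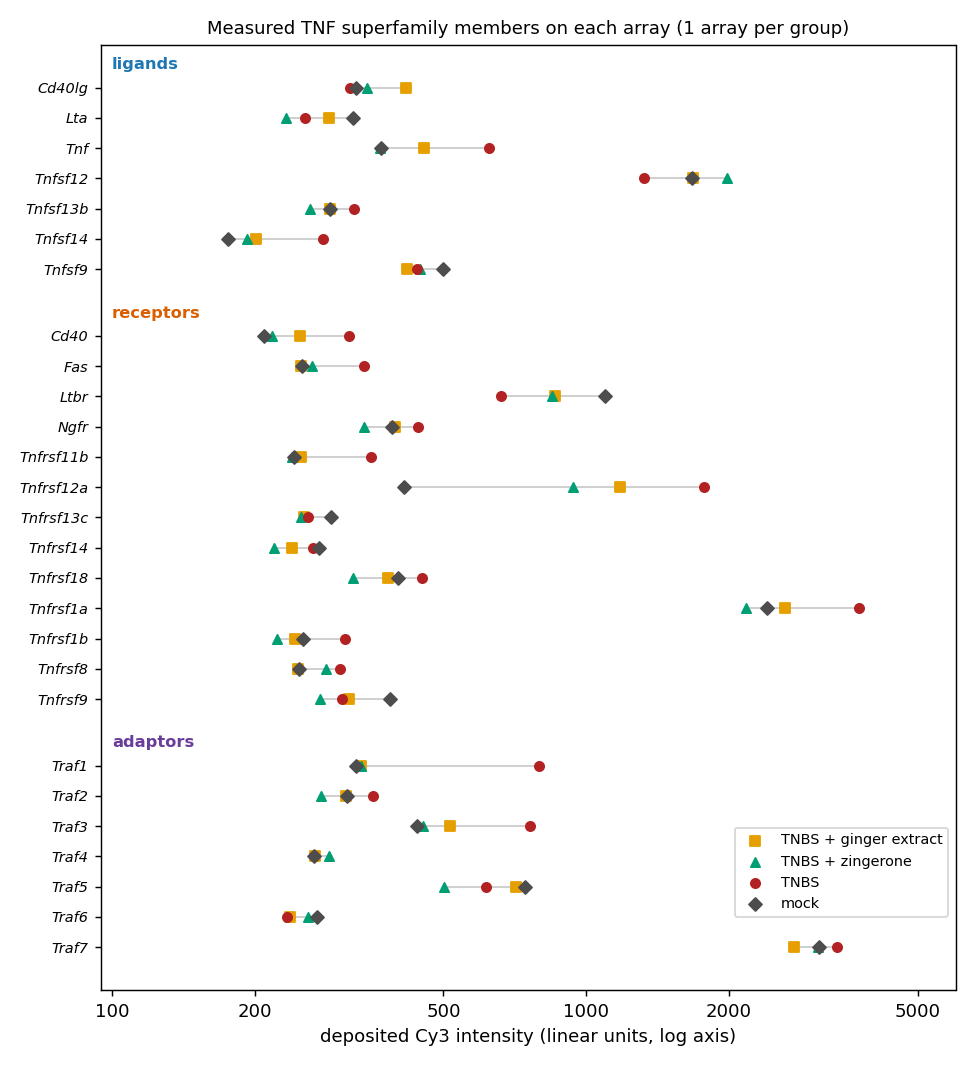
Deposited Cy3 intensity (horizontal log axis) of the 27 measured members, in rows grouped as ligands, receptors and adaptors, with 1 point for each of the 4 arrays and a line from the lowest to the highest. Tnfrsf12a spans 1772 on TNBS and 412 on mock, Traf1 stands apart on the TNBS array alone, and most other lines are short.

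Receptors, ligands and adaptors were set against mock and TNBS apart. Of 13 measured receptors, 9 were above mock (median 0.29, log2), of 7 ligands 3 (median -0.039) and of 7 adaptors 4 (median 0.13), beside 46.1% of all measured genes above mock, with a median of -0.037. Of the receptors, Cd40, Fas, Tnfrsf11b and Tnfrsf1b were measured through the TNBS array alone. With dim genes kept, 16 of 24 receptors lay above mock (median 0.18), 6 of 15 ligands (median -0.039) and the same 4 of 7 adaptors. Of all named genes 47.3% lay above mock there (median -0.016). On the ginger array 11 of the 13 receptors lay below TNBS (median -0.30), 4 of the 7 ligands (median -0.073) and 4 of the 7 adaptors (median -0.19), beside 47.1% of all measured genes (median 0.021). On the zingerone array 12 receptors lay below TNBS (median -0.38), 4 ligands (median -0.13) and 5 adaptors (median -0.30), beside 51.5% of all measured genes (median -0.016). With dim genes kept, 19 of 24 receptors lay below TNBS on ginger and 19 on zingerone, with medians of -0.16 and -0.22. Of all named genes 49.1% lay below TNBS on ginger and 54.2% on zingerone, with medians of 0.0027 and -0.030. The difference between roles was not tested. With the brightest probe standing for each gene, the ligand medians against TNBS turned positive, at 0.17 on ginger and 0.023 on zingerone.

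**Figure D2:**
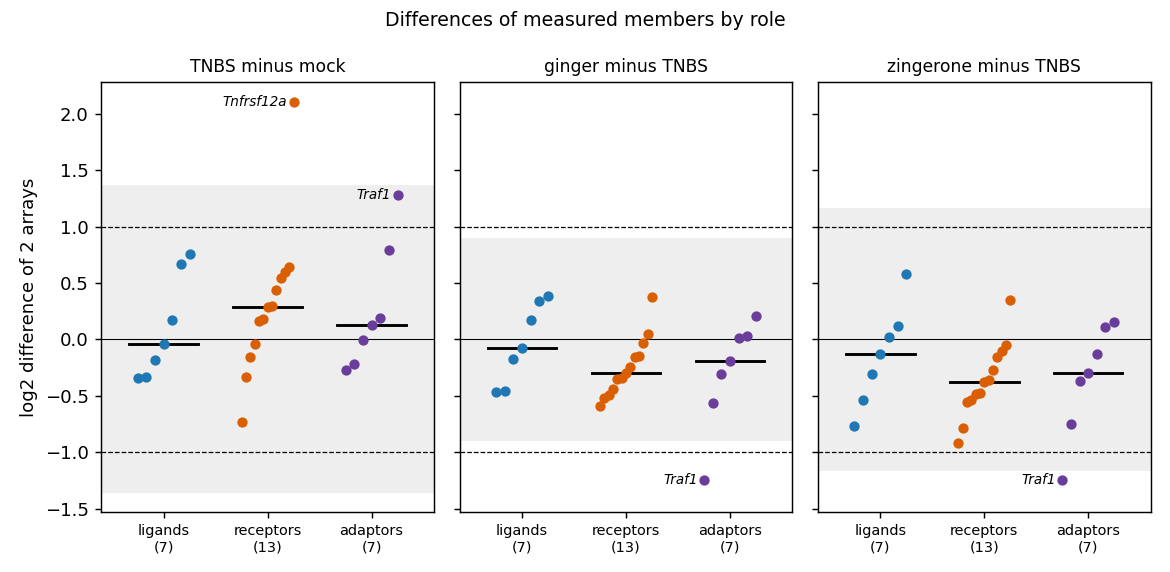
Log2 difference of 2 arrays (vertical axis) for each measured ligand, receptor and adaptor in TNBS minus mock, ginger minus TNBS and zingerone minus TNBS, with a bar at the median of each role, dashed lines at 2-fold, and a grey band out to the 95th percentile of the absolute difference over all measured genes (1.36, 0.89 and 1.16 in that order). Tnfrsf12a lies above the band and Traf1 inside it on TNBS minus mock, and Traf1 lies below the band in both other panels.

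The receptor Tnfrsf12a, which encodes Fn14, had the widest span of the 27. Its single probe read 1179 on the ginger array, 939 on the zingerone array, 1772 on the TNBS array and 412 on the mock array. The TNBS value was 4.30-fold the mock value (log2 difference 2.10), rank 132 from the top of 10056 measured genes. Both treated arrays lay between the others. Tnfrsf12a was 1.50-fold lower on ginger and 1.89-fold lower on zingerone than on TNBS, and still 2.86-fold and 2.28-fold above mock, ranks 77 and 107 from the top in those comparisons. On the log2 scale 72.0% of the distance between TNBS and mock was left on ginger and 56.5% on zingerone.

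The ligand of Fn14 did not follow its receptor. Tnfsf12, which encodes TWEAK, read 1676 on the ginger array, 1977 on the zingerone array, 1326 on the TNBS array and 1672 on the mock array. It was lowest on TNBS (1.26-fold below mock) and highest on zingerone (1.49-fold above TNBS), and all 4 values lay within 2-fold.

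The adaptor Traf1 is bound by TNFR2, CD40 and other receptors and is itself a known NF-κB target gene. It read 335 on the ginger array, 335 on the zingerone array, 795 on the TNBS array and 327 on the mock array. It was high on the TNBS array alone, 2.43-fold above mock (log2 1.28, rank 330 from the top), and 2.38-fold lower than TNBS on ginger and 2.38-fold lower on zingerone, ranks 156 and 189 from the bottom. The ginger and zingerone values were equal and lay 1.02-fold above mock. On both arrays 2.47% of the log2 distance was left, against the 72.0% and 56.5% of Tnfrsf12a, a contrast read from 1 probe each on the same 4 arrays.

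Traf3, which holds back non-canonical NF-κB signalling by promoting breakdown of the kinase NIK, ordered the arrays as Tnfrsf12a did, with a smaller span. It read 515 on the ginger array, 453 on the zingerone array, 761 on the TNBS array and 441 on the mock array, which is 1.73-fold higher on TNBS than on mock, 1.48-fold lower on ginger and 1.68-fold lower on zingerone than on TNBS. Traf2, which brings the cIAP ubiquitin ligases to TNF receptors, read 312 on ginger, 276 on zingerone, 356 on TNBS and 313 on mock, and differed by 0.19 (log2) between TNBS and mock. Traf7 stayed between 2735 on ginger and 3381 on TNBS.

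The other adaptors showed no common order. Traf5, which binds receptors of lymphocytes such as CD40, read 710 on ginger, 501 on zingerone, 616 on TNBS and 744 on mock, lowest on zingerone. Traf6, shared with interleukin-1 and Toll-like receptor signalling, has 3 probes that disagree. One read 290.2 on ginger, 272 on zingerone, 355 on TNBS and 281 on mock, a second 275 on ginger, 392 on zingerone, 233 on TNBS and 396 on mock, and the third stayed at 179 or less, so that TNBS minus mock was 0.33, -0.77 and -0.21 on the log2 scale. No direction can be given for Traf6. The 2 probes of Traf4 also differed in sign and stayed between 215 and 373.

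Promoters of the 4 measured members with the widest gap between TNBS and mock are shown because Tnfrsf12a, Traf1, Traf3 and Tnf were all highest on the TNBS array. The sequences are RefSeq's (GRCm38.p6), 250 bases before to 50 after the annotated start, 5′ to 3′, in lower case with motif matches in capitals. The positions are chr17:23677400-23677699 (minus strand) for Tnfrsf12a, chr2:34961723-34962022 (minus strand) for Traf1, chr12:111166120-111166419 (plus strand) for Traf3 and chr17:35201958-35202257 (minus strand) for Tnf.
Tnfrsf12a: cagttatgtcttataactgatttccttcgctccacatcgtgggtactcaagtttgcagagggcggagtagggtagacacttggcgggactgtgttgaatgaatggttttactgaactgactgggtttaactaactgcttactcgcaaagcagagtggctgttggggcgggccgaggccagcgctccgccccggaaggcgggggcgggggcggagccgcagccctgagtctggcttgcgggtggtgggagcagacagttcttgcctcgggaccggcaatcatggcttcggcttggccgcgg
Traf1: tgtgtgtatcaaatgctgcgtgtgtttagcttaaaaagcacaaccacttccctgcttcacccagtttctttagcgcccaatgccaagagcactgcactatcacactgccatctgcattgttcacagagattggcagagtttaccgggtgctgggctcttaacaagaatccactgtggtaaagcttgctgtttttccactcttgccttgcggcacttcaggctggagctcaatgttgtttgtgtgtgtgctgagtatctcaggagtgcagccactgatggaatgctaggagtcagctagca
Traf3: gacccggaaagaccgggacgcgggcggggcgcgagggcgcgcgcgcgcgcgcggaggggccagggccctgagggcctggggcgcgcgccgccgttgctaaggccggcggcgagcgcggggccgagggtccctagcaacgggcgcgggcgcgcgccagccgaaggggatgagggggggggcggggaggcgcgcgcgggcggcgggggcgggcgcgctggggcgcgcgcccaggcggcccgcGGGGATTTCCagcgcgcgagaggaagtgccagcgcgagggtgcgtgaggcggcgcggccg
Tnf: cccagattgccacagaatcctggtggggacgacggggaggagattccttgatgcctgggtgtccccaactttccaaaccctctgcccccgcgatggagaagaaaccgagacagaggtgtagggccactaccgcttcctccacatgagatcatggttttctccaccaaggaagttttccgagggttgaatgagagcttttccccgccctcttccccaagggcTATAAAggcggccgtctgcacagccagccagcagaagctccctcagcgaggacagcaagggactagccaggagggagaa
Both strands were searched for the κB consensus motif (bound by NF-κB), for AP-1 (TGANTCA) and for the TATA box (TATAAA), and no matches overlapped in these 4. The Traf3 window holds 1 κB match, GGGGATTTCC, over the last 10 bases before the start, and the Tnf window holds TATAAA with its first base 29 bases before the start. The windows of Tnfrsf12a and Traf1 hold none of the 3, which says only that these letters are not in these windows. Among all 32851 promoter windows 8.46% held the κB motif, 7.81% AP-1 and 13.6% the TATA box. Of 41 windows for 37 of the 46 members, 5 held κB (12.2%), 6 AP-1 (14.6%) and 5 the TATA box (12.2%). A match is a description of letters, not a site shown to be bound.

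Tnf, the founding cytokine of the family, differed less than 2-fold between any of the arrays. It read 455 on the ginger array, 367 on the zingerone array, 624 on the TNBS array and 370 on the mock array. TNBS was 1.69-fold above mock, ginger 1.37-fold and zingerone 1.70-fold below TNBS, and zingerone and mock were nearly equal. Lta, which encodes lymphotoxin-α, had another order with 287 on ginger, 233 on zingerone, 255 on TNBS and 323 on mock, highest on mock. Ltb, its membrane partner, was below the named-probe median with 213 on ginger, 219 on zingerone, 199 on TNBS and 261 on mock.

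Tnfrsf1a, which encodes the widely expressed TNF receptor 1, followed the order of Tnf. It read 2619 on the ginger array, 2175 on the zingerone array, 3754 on the TNBS array and 2407 on the mock array. TNBS was 1.56-fold above mock, ginger was 1.43-fold below TNBS, and zingerone, 1.73-fold below TNBS, lay under the mock value. Tnfrsf1b, the TNF receptor 2 of leukocytes and endothelium, has 2 probes that differ. The brighter read 276 on ginger, 296 on zingerone, 525 on TNBS and 323 on mock, higher on TNBS than on mock by 0.70 with a ginger minus TNBS difference of -0.93 (log2). The dim one stayed between 169 and 214, with a TNBS minus mock difference of -0.11, and the mean of both was 1.23-fold.

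Ltbr, the lymphotoxin-β receptor of epithelium and stroma, had the lowest TNBS minus mock difference of the measured members, though within 2-fold. It read 859 on the ginger array, 845 on the zingerone array, 662 on the TNBS array and 1098 on the mock array. TNBS was 1.66-fold below mock (log2 -0.73, rank 856 from the bottom), and ginger and zingerone, 1.30-fold and 1.28-fold above TNBS, both stayed under mock. Tnfsf14 (LIGHT), a ligand of this receptor and of HVEM, went the other way with 201 on ginger, 193 on zingerone, 279 on TNBS and 176 on mock, and reached the named-probe median on TNBS alone. HVEM itself, Tnfrsf14, read 240 on ginger, 219 on zingerone, 265 on TNBS and 273 on mock.

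**Figure D3:**
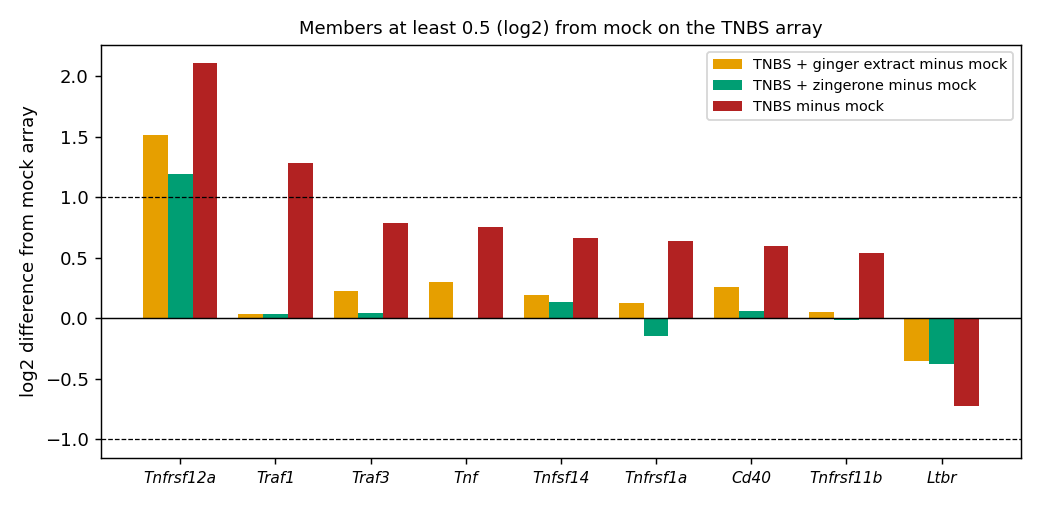
Log2 difference from the mock array (vertical axis) on the ginger, zingerone and TNBS arrays for the 9 measured members whose TNBS value lay at least 0.5 from mock, with dashed lines at 2-fold. All bars share the mock array. Tnfrsf12a stays above the 2-fold line on all 3 arrays, Traf1 on TNBS alone, and Ltbr is the member below 0.

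The 9 measured members at least 0.5 (log2) from mock on the TNBS array were Tnfrsf12a, Traf1, Traf3, Tnf, Tnfsf14, Tnfrsf1a, Cd40 and Tnfrsf11b, all above, and Ltbr, below. They make up 33.3% of the measured members, near the 29.6% of all measured genes that far from mock. All 9 lay nearer to mock on the ginger array and on the zingerone array than on the TNBS array. Genes picked for an extreme TNBS value tend to lie nearer to mock on any other array, so this count supports nothing by itself. Zingerone was nearer to mock than ginger for 6 of the 9. Ltbr and Tnfrsf1a were nearer on ginger, and Traf1 was equal on both. These counts were not set beside all measured genes and are descriptions.

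No death receptor or ligand of one differed 2-fold between any arrays. Fas, which triggers caspase-8 through FADD, read 251 on ginger, 265 on zingerone, 339.5 on TNBS and 251 on mock and reached the named-probe median on TNBS alone (1.35-fold above mock). Its ligand Fasl stayed between 154 and 176. Tnfsf10 (TRAIL), also a ligand of death receptors, was dim in the mean of its 2 probes, but its brighter probe read 255 on ginger, 227 on zingerone, 214 on TNBS and 347 on mock and the other at most 165, with TNBS minus mock at -0.70 on the log2 scale. The TRAIL receptor Tnfrsf10b averaged 182 on ginger, 176 on zingerone, 190.4 on TNBS and 170.3 on mock over 4 probes. The brightest of them read 300.2 on ginger, 292 on zingerone, 309 on TNBS and 265 on mock, and the probes disagreed in sign, with TNBS minus mock at 0.22, 0.36, 0.24 and -0.17 (log2). Tnfrsf23, a decoy receptor for TRAIL, read 204 on ginger, 180 on zingerone, 252 on TNBS and 158 on mock and Tnfrsf26 read 162 on ginger, 152 on zingerone, 249 on TNBS and 144 on mock. Both are under the filter, so their TNBS minus mock differences of 0.68 and 0.79 (log2) rest on dim probes. The decoy Tnfrsf22 and Tnfrsf21 (DR6) stayed within 1.24-fold in the means of their probes. The brightest of 3 Tnfrsf22 probes read 491.5 on ginger, 380 on zingerone, 466.5 on TNBS and 456 on mock.

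Among genes of B cell help and survival, Cd40 lay 1.51-fold higher on TNBS than on mock. The receptor licenses B cells and antigen-presenting cells, and the mean of its 2 probes read 249.7 on ginger, 217 on zingerone, 316 on TNBS and 209 on mock. Both probes were highest on TNBS, one at 235 on ginger, 189.8 on zingerone, 269 on TNBS and 216 on mock and the other at 265 on ginger, 249 on zingerone, 371 on TNBS and 202 on mock, and they differed in sign for zingerone minus mock. Cd40lg, the ligand on activated T cells, read 417 on ginger, 346 on zingerone, 319 on TNBS and 327 on mock, highest on ginger. Tnfsf13b (BAFF), the B cell survival factor, averaged 288 on ginger, 262 on zingerone, 324 on TNBS and 288 on mock over 3 probes, 2 of them bright and both highest on TNBS, at 487 and 498. Its receptor Tnfrsf13c read 255 on ginger, 251 on zingerone, 259.5 on TNBS and 289 on mock. The second BAFF receptor gene, Tnfrsf13b (TACI), was dim in the mean of its 2 probes with 199 on ginger, 211 on zingerone, 189 on TNBS and 192 on mock. Its brighter probe read 296 on ginger, 269 on zingerone, 294 on TNBS and 270.5 on mock.

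Co-stimulatory pairs of T cells showed no shared direction. Tnfrsf9 (4-1BB) read 316 on ginger, 274 on zingerone, 306 on TNBS and 386 on mock and its ligand Tnfsf9 418 on ginger, 447 on zingerone, 439.8 on TNBS and 498 on mock, both highest on mock. Tnfrsf18 (GITR) read 381 on ginger, 323 on zingerone, 451 on TNBS and 402 on mock, highest on TNBS, while its ligand Tnfsf18 was dim, with 1 of 2 probes at 252 on ginger, 353 on zingerone, 208 on TNBS and 233 on mock. Tnfrsf8 (CD30) averaged 247 on ginger, 282 on zingerone, 303 on TNBS and 249 on mock over 2 probes. The brighter read 349 on ginger, 480 on zingerone, 534.5 on TNBS and 357 on mock. The other stayed at 174 or less, and TNBS minus mock was 0.58 and -0.010 (log2) in that order. The ligand of CD30, Tnfsf8, was dim at 198 or less. Tnfrsf25 (DR3) read 186 on ginger, 231 on zingerone, 222 on TNBS and 189 on mock and its ligand Tnfsf15 (TL1A) 164 on ginger, 151 on zingerone, 165 on TNBS and 145 on mock, all under the filter. Tnfrsf4 (OX40) at 228 on ginger, 249 on zingerone, 256 on TNBS and 215 on mock, its ligand Tnfsf4 at 208 on ginger, 198 on zingerone, 216 on TNBS and 231 on mock and Cd27 at 136 on ginger, 179 on zingerone, 131 on TNBS and 153 on mock were also under it. The Tnfrsf4 values are means of 2 probes, and the brighter read 258 on ginger, 286 on zingerone, 280 on TNBS and 226 on mock.

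Of the RANK system, known from osteoclasts and from the M cells over gut lymphoid follicles, the decoy receptor was the measured member. Tnfrsf11b, which encodes osteoprotegerin, read 251 on ginger, 240.2 on zingerone, 353 on TNBS and 243 on mock, 1.45-fold higher on TNBS than on mock and close to mock on the other arrays. The ligand Tnfsf11 (RANKL) read 198 on ginger, 197 on zingerone, 248 on TNBS and 212 on mock and the receptor Tnfrsf11a (RANK) 132 on ginger, 163 on zingerone, 109.8 on TNBS and 158 on mock, both under the filter. Ngfr, the neurotrophin receptor of glia and nerve, has 1 bright probe with 983 on ginger, 766 on zingerone, 1217 on TNBS and 990.1 on mock and 1 dim probe at 161 or less. Tnfrsf19 (TROY) stayed between 176 and 186.

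Downstream of the receptors, few genes of the signalling complexes differed 2-fold, and most of the listed genes that TNF is known to induce did. No measured member differed 2-fold between TNBS and mock, or on ginger or zingerone against TNBS, among 6 death domain adaptors and RIP kinases (TNBS minus mock median 0.0094), 7 caspase, FLIP and BCL2 family genes (0.06), the inhibitors of apoptosis Birc2 and Birc3 with their antagonist Diablo (-0.33) and 6 genes of TNF shedding (0.29). Adam17, the protease that releases TNF, came nearest with 545 on ginger, 530.2 on zingerone, 842 on TNBS and 448 on mock. Cflar, the caspase-8 inhibitor FLIP, read 200.4 on ginger, 191 on zingerone, 297 on TNBS and 177 on mock. Of all measured genes 5.08% were 2-fold higher and 4.52% lower on TNBS than on mock. The lack of calls in such short lists is thus no result about them. The family relatives Eda, Eda2r and Relt stayed within 2-fold (median -0.014), and Cd70 and Edar were under the filter.

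Of 8 ubiquitin ligases and deubiquitinases, 1 was higher and 1 lower on TNBS than on mock. Of all measured genes 5.08% were higher and 4.52% lower. Tnfaip3, which encodes the NF-κB brake A20, read 848 on ginger, 777 on zingerone, 3326 on TNBS and 542 on mock, and was 3.92-fold lower on ginger and 4.28-fold lower on zingerone than on TNBS. Tax1bp1, a partner of A20, was 3.42-fold lower on TNBS than on mock, with 3168 on ginger, 2913 on zingerone, 1866 on TNBS and 6376 on mock. Of 11 kinases and scaffolds, 2 were higher on TNBS and none lower, beside the same shares of all genes. Ikbke, a kinase related to the I-κB kinases, read 537 on ginger, 526 on zingerone, 1018 on TNBS and 459 on mock. Map3k14, which encodes NIK, was just past the 2-fold threshold, with 464 on ginger, 423 on zingerone, 630.2 on TNBS and 315 on mock.

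Of 8 NF-κB subunits and I-κB proteins, 3 were higher on TNBS than on mock and the same 3 lower on ginger and on zingerone than on TNBS, against 5.08% of all genes higher on TNBS, 2.48% lower on ginger and 2.96% lower on zingerone, and with a TNBS minus mock median of 0.57 (log2). They were Nfkb2, which encodes p100 and p52 of the non-canonical arm, at 1803 on ginger, 1345 on zingerone, 4129 on TNBS and 1174 on mock, the inhibitor Nfkbia at 3021 on ginger, 2249 on zingerone, 13116 on TNBS and 2475 on mock, and the I-κB family protein Nfkbiz at 936 on ginger, 697 on zingerone, 3565 on TNBS and 651 on mock. Relb, the partner of p52, read 483 on ginger, 413 on zingerone, 579 on TNBS and 439 on mock.

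Of 14 measured genes that TNF induces in many cells, 11 were higher on TNBS than on mock (median 1.79, log2). Of all measured genes, 5.08% were 2-fold higher there. On ginger 8 and on zingerone 10 of the 14 were lower than on TNBS, where 2.48% and 2.96% of all genes were. The list was chosen with earlier results of these data known, so these counts are descriptions. Whether TNF induced the genes here was not tested. The neutrophil chemokine Cxcl2 read 8788 on ginger, 6282 on zingerone, 39029 on TNBS and 487 on mock, and Cxcl1, another of them, 3132 on ginger, 1116 on zingerone, 23605 on TNBS and 437 on mock. Ccl2, which attracts monocytes, read 392 on ginger, 296 on zingerone, 1930.2 on TNBS and 226 on mock, and the stress response gene Ier3 6339 on ginger, 3200 on zingerone, 16498 on TNBS and 1435 on mock. Tnfaip6, a hyaluronan-binding protein, was not higher on TNBS than on mock, with 249 on ginger, 223 on zingerone, 591 on TNBS and 612 on mock.

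**Figure D4:**
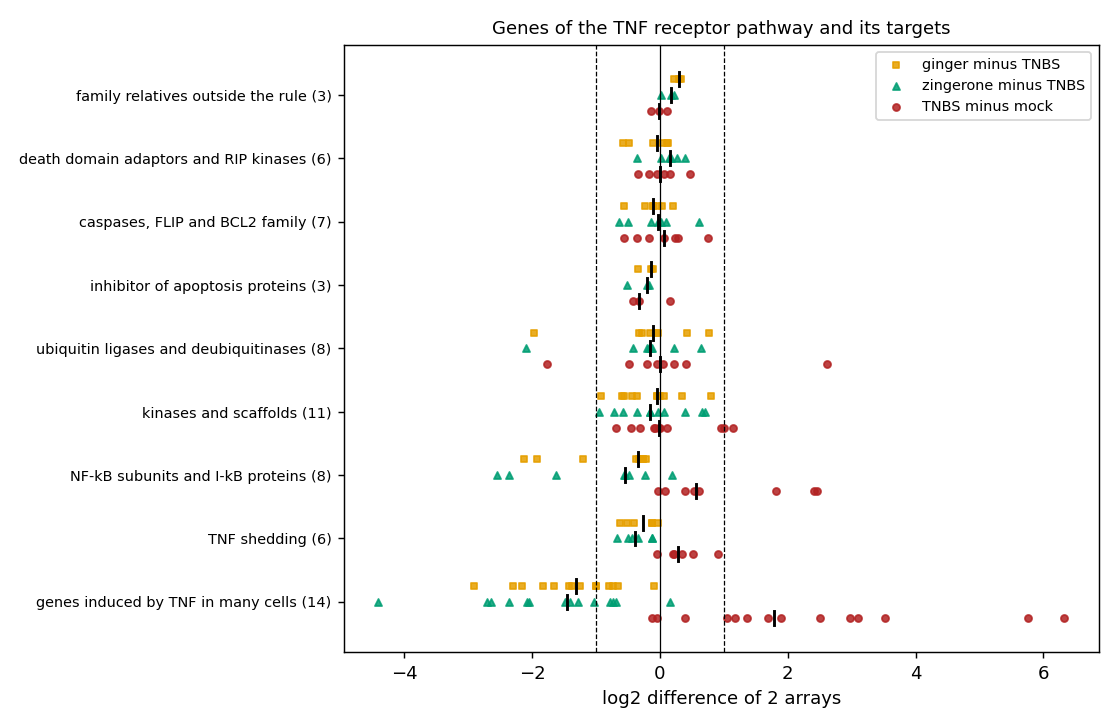
Log2 difference of 2 arrays (horizontal axis) for measured genes of 9 lists (rows, number of genes in brackets) in ginger minus TNBS, zingerone minus TNBS and TNBS minus mock, with a black bar at each median and dashed lines at 2-fold. The listed genes that TNF is known to induce spread to the right on TNBS minus mock (median 1.79) and to the left against TNBS. The medians of the other 8 lists lie between -0.55 and 0.57.

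Markers of several cell types differed between the arrays as well. Of all measured genes 5.08% were 2-fold higher and 4.52% lower on TNBS than on mock. Those shares belong beside the counts here and in the marker paragraphs that follow. All 7 measured neutrophil markers of 13 listed were higher on TNBS than on mock, with a summed intensity of 96898 on ginger, 75854 on zingerone, 149636 on TNBS and 5663 on mock. The brightest were S100a9 at 51922 on ginger, 41248 on zingerone, 59656 on TNBS and 1046 on mock and S100a8 at 36266 on ginger, 28462 on zingerone, 43027 on TNBS and 1234 on mock, and Csf3r, Mpo, Ngp and Camp were under the filter. Of 12 monocyte and macrophage markers 8 were measured and 2 were higher on TNBS, with a sum of 6969.6 on ginger, 6867 on zingerone, 31311 on TNBS and 3960.3 on mock. The brightest were Cd14 at 4222 on ginger, 4097 on zingerone, 28071 on TNBS and 1322 on mock and Cd68 at 536 on ginger, 573 on zingerone, 972 on TNBS and 426 on mock. Of the 8 measured, 4 lay above mock on TNBS and 4 below it, namely Adgre1, Itgam, Lyz2 and Mrc1. Without Cd14 the monocyte and macrophage sum was 1.23-fold higher on TNBS than on mock, in place of 7.91-fold. That sum was tried after seeing the data. Fibroblast and matrix markers (8 of 9 measured, 2 higher) summed to 10787 on ginger, 10252 on zingerone, 24588 on TNBS and 8041 on mock. The brightest were Vim at 6446 on ginger, 5140.2 on zingerone, 18999 on TNBS and 3388 on mock and Col1a2 at 1147 on ginger, 1746 on zingerone, 1165 on TNBS and 1888 on mock, and without Vim the list summed to 4341 on ginger, 5111 on zingerone, 5589 on TNBS and 4653 on mock. Endothelial markers (5 of 9 measured, 2 higher) summed to 2630.5 on ginger, 2556 on zingerone, 3901 on TNBS and 2211 on mock, with Eng at 709 on ginger, 747 on zingerone, 1132 on TNBS and 525 on mock and Pecam1 at 644 on ginger, 507 on zingerone, 868 on TNBS and 583 on mock the brightest. Colon epithelial markers (17 of 18 measured, 4 lower and 1, Krt18, higher) summed to 248759 on ginger, 292024 on zingerone, 189143 on TNBS and 252285 on mock. Among them Tff3 was lower on TNBS than on mock and Krt8 higher, with log2 differences of -0.92 and 0.42. The part of these cells in the values of Tnfrsf12a, Traf1, Tnf, Tnfrsf1a and Ltbr was not tested.

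Lymphocyte markers bear on the co-stimulatory genes. T and NK cell markers had 6 of 15 measured, none 2-fold apart between TNBS and mock, and summed to 3114 on ginger, 2345 on zingerone, 2591 on TNBS and 3066 on mock; Cd4, Cd8b1, Nkg7, Gzmb, Ncr1 and Klrb1c were under the filter. The brightest were Cd3g at 938 on ginger, 531 on zingerone, 697 on TNBS and 928 on mock and Cd3e at 635 on ginger, 469.5 on zingerone, 670.1 on TNBS and 625 on mock. B and plasma cell markers had 8 of 11 measured, 3 of them lower on TNBS, and summed to 12179 on ginger, 13767 on zingerone, 10108 on TNBS and 15186 on mock, with Xbp1 at 5189.5 on ginger, 6173 on zingerone, 4919 on TNBS and 5758 on mock and Jchain at 2948 on ginger, 3834 on zingerone, 1799 on TNBS and 4924 on mock the brightest. Dendritic cell markers had 3 of 8 measured, none 2-fold higher on TNBS than on mock, and summed to 1115 on ginger, 918 on zingerone, 1534 on TNBS and 1091 on mock, with Batf3 and Ccr7 the brightest. Mast cell markers had 2 of 8 measured, 1 of them lower on TNBS, and summed to 445 on ginger, 436 on zingerone, 390.2 on TNBS and 758 on mock, with Mcpt1 and Cma1 the measured genes. Their part in the values of Cd40, Cd40lg, Tnfrsf9 and Tnfrsf18 was not tested.

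Further lists cover the rest of the bowel wall. Smooth muscle markers (7 of 7 measured, 1 lower on TNBS than on mock) summed to 16160.3 on ginger, 9529 on zingerone, 16447 on TNBS and 20672 on mock, and enteric neuron and glia markers (3 of 10 measured, 1 higher) to 1361 on ginger, 997 on zingerone, 1687 on TNBS and 907 on mock. Actg2 and Des were the brightest of the muscle list, and Vip and Sox10 of the other. Without Vip the neuron and glia list summed to 644 on ginger, 551 on zingerone, 745 on TNBS and 622 on mock. Adipocyte markers (6 of 7 measured, 4 higher) summed to 16378 on ginger, 28718 on zingerone, 64309 on TNBS and 10019 on mock, with Fabp4 at 9969 on ginger, 19855 on zingerone, 45906 on TNBS and 4159.5 on mock and Cfd at 4804 on ginger, 6871 on zingerone, 16128 on TNBS and 4376 on mock the brightest. Without Fabp4 that sum was 3.14-fold higher on TNBS than on mock, in place of 6.42-fold. The skeletal muscle markers (3 of 6 measured, 1 higher) summed to 1200.2 on ginger, 1600 on zingerone, 1495 on TNBS and 790 on mock, with Acta1 and Tnnt3 the brightest. Their part in the members' values was not tested. No marker intensity was 0, since the deposited values start at 74.2.

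Whether background was removed before deposit is not stated, so calls were repeated after taking away the intensity at the 5th percentile from every array. Then Tnfrsf12a was 5.69-fold and Traf1 3.28-fold higher on TNBS than on mock, and Tnfsf14 (2.91-fold), Cd40 (2.20-fold), Tnf (2.02-fold) and Traf3 (2.01-fold) came past 2-fold, 6 of 25 members against 8.61% of 9930 genes. On zingerone against TNBS, 5 members were then 2-fold lower (5.38% of genes), Traf1 (3.15-fold), Tnfsf14 (2.20-fold), Cd40 (2.04-fold), Tnf (2.04-fold) and Tnfrsf12a (2.02-fold). On ginger against TNBS it was Traf1 alone (3.17-fold, with 4.19% of genes lower), while Tnfsf14 was 1.98-fold lower. Tnfrsf12a remained 3.65-fold above mock on ginger and 2.82-fold above mock on zingerone. Of these genes Tnfsf14 read 53.8 on mock, close to the floor of 50. Tnfsf14 and Cd40, at 156.5 and 191 on TNBS after subtraction, passed the filter through the TNBS array alone. The filter thus selected them for a high TNBS value, and the counts of 6 and 5 members are descriptions.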

How the data were processed

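Each of the 4 groups is represented by 1 array of colon RNA, labelled with Cy3. The authors deposited 1 intensity per probe and array for 29922 probes. The submitters' processing notes name limma, with neither version nor role; how the arrays were scanned, background-corrected and normalized is not given in the sources used here. Array by array, sorted intensities differ by at most 1.84%.

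The platform annotation gives a single gene symbol for 21020 probes. The other 8902 were left unnamed, a group that takes in probes with no symbol and any with several. Through RefSeq synonyms (GRCm38.p6) 3410 symbols were updated; 17558 were current and 52 were kept as they stood. The 46 members have 65 probes, none with an updated symbol, and 14 have several. No member probe stood apart on 1 array (at least 4-fold from the others while those agreed within 0.5, log2). Probes of a gene were averaged as log2 intensity without a pseudocount. Of 16637 genes, 10056 reached the 50th percentile of the named probes on at least 1 array. Python 3.11.15, pandas 2.3.3 and numpy 2.4.6 were used. The code for fold calls was run on simulated arrays with planted changes larger than 2-fold. That run checks the code and says nothing about the smaller differences of most members.

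With 1 array per group no test was run. Members and gene lists were chosen with earlier results of these data known. All 46 members are accounted for, with values on every array for those 2-fold apart in any of 6 comparisons and for 23 genes fixed by name. From each pathway list the 3 genes furthest apart past 2-fold, and of marker lists the 2 brightest by mean intensity, are named; Cflar, Adam17, Relb and Tnfaip6 were added after their values were seen. Promoter sequences came from RefSeq. The 9 alternative settings are given in the closing section.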

Additional observations from a re-analysis of the deposited data

Results flagged for a closer look

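The measured members Traf5 and Lta lay on opposite sides of the TNBS array on ginger and on zingerone, with at least 0.25 (log2) between those arrays. Traf5 differed from TNBS by 0.20 on ginger and by -0.30 on zingerone, and its ginger minus zingerone difference was 0.50. Lta differed from TNBS by 0.17 on ginger and by -0.13 on zingerone, and its ginger minus zingerone difference was 0.30. All 4 contrasts are under 2-fold, each gene has 1 probe, and the contrasts share the TNBS array. With 1 array per group the difference was not tested.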

How the results depend on the processing

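Counts of members 2-fold apart in 6 comparisons were recomputed under 9 alternatives. These were quantile normalization, equal array medians, taking away the intensity at the 5th percentile (values then under 50 raised to 50), dim genes kept, a floor at the 25th percentile, a stricter filter at the 75th percentile, use of the brightest probe, omission of probes that stand apart on 1 array, and omission of dim probes before averaging. Of 108 recomputed counts 106 stayed within 1.5 times, and both others came from the subtraction at the 5th percentile: 6 members in place of 2 were higher on TNBS than on mock, and 5 in place of 1 lower on zingerone than on TNBS. After subtraction 8.61% of all measured genes were 2-fold higher on TNBS than on mock, in place of 5.08%. For genes lower on zingerone than on TNBS the share was 5.38% in place of 2.96%. Why more members pass there was not tested. Among them Tnfsf14 and Cd40 passed the filter through the TNBS array alone, so these member counts are descriptions. Tnfrsf12a and Traf1 stayed past 2-fold under all 9. The log2 TNBS minus mock difference was 2.10 to 2.51 for Tnfrsf12a and 1.28 to 1.71 for Traf1. Most of the settings could hardly move these 2 genes. Each has 1 probe, over the filter on all 4 arrays, and the deposited arrays already share nearly the same distribution. The subtraction gave 2.51 and 1.71, and every other setting gave values near 2.10 and 1.28. Of 162 role medians 8 changed sign with a size of at least 0.1 before or after. No paired analysis was possible because each group has 1 array. Array, mouse and treatment cannot be told apart. For the 19 members whose probe means lay under the filter, signal over background limits what can be seen, though some of them have a brighter probe.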
